A study of Mus musculus with 12 samples.

Results

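Bile acid synthesis enzymes were followed as 10 genes that carry cholesterol through the successive steps of primary bile acid production in the liver. The genes were taken by name from a table of 11289 genes measured in 12 mouse livers, and all 10 were found there. They are Cyp7a1, Cyp27a1 and Cyp7b1, which start the pathway, Hsd3b7, Cyp8b1 and Akr1d1, which modify the sterol ring, Amacr and Acox2, which act on the side chain, and the conjugation enzymes Slc27a5, which activates bile acids, and Baat, which then attaches glycine or taurine.

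Hepatocytes are the cells that turn cholesterol into bile acids. In the classical route Cyp7a1 adds the first hydroxyl group and sets the rate of the pathway, and in the alternative route Cyp27a1 and then Cyp7b1 do so. Bile acids returning from the gut activate the receptor FXR, which lowers Cyp7a1 and Cyp8b1, and inflammatory signals are also known to lower both genes in liver.

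Total liver RNA was sequenced from C57BL/6J mice in 3 groups of 4 animals, described in the methods as male. Con A, concanavalin A, is a lectin of the jack bean that stimulates T cells and damages the liver, and was given at 15 mg/kg into the tail vein. After 30 min the Con A + PBS group received PBS, and the Con A + hWJ-MSCs group received hWJ-MSCs, mesenchymal stem cells grown from human cord tissue (Wharton's jelly). The labels give 2000000 cells and the methods another number. Livers were collected 24 h after Con A, and the labels give an age of 8 to 10 weeks, where the methods give a different range. The labels do not say what the control group received. Each column is 1 animal, so the spread below is between mice. Each group of 4 mice enters more than 1 comparison, so the comparisons are not independent.

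The deposited values are whole numbers that had already been brought to a common distribution, so each is called a score here. The median score was 352 and the upper quartile 830 in each of the 12 mice, and totals ran from 17649654 to 17657159. A score therefore follows a gene's place among the genes of the same liver, and the read depth behind it is unknown. The top of the scale is coarse, since 10 genes in each mouse held the largest score of 341028, and Alb, the albumin gene, held it in 12 of 12 mice. Scores are not per transcript length, so levels were compared between mice within a gene and not between genes.

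Within the groups, mice differed in the same direction for many members, but not for all. In the Con A + PBS group mouse 2 had the highest score in 6 of the 10 genes and the lowest in 1. Mouse 4 of that group was lowest in 4 and highest in 3. In the Con A + hWJ-MSCs group mouse 2 was highest in 8 genes and lowest in 2, and mouse 4 lowest in 7 and highest in 2.

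**Figure D1:**
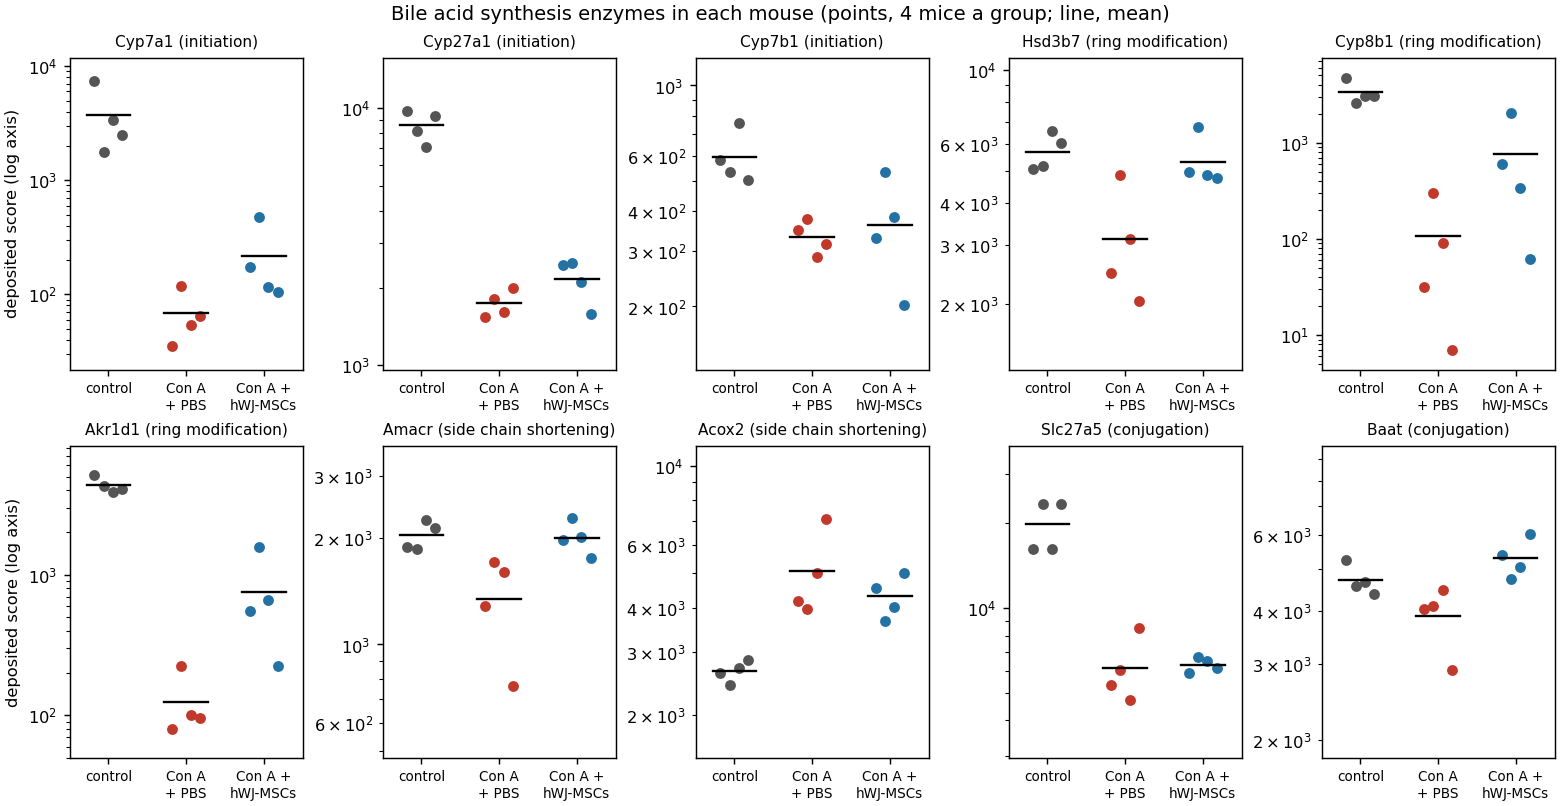
Deposited score (log axis) of each bile acid synthesis gene in each mouse, with 1 point per animal and a line at the mean of the 4 mice in each of the 3 groups. Cyp7a1 spans 1768 to 7356 in control mice and 35 to 119 after Con A and PBS, whereas the Acox2 points of both Con A groups lie above the control points.

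Con A + PBS livers carried lower scores for most of the pathway than control livers. Differences were estimated with limma on log2(score + 1) over all genes, and a gene was called when its Benjamini-Hochberg adjusted p was below 0.05 and its change above 1.5-fold. By this rule 8 of 10 members fell, 1 rose and 1 was not called, against 19.2% of all genes called lower and 19.5% called higher, or 38.8% in either direction. In 9 of the 10 genes the Con A + PBS mice did not overlap the control mice, where 23.4% of all genes lay apart on the lower side and 27.1% on the higher side. The median log2 difference of the members was -1.32, beside 0.05 for all genes. Bulk liver RNA cannot tell fewer hepatocytes from less of a transcript per hepatocyte.

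Con A + hWJ-MSCs livers lay closer to control for part of the pathway. Compared with the Con A + PBS group, 2 of 10 members rose (Akr1d1 and Hsd3b7) and none fell (6 higher and 0 lower at an unadjusted p under 0.05, where 18% and 16.6% of all genes were), against 4.2% of all genes called higher and 4.38% called lower by limma (8.58% in either direction). With each of the 12 mice left out in turn the number that rose ranged from 0 to 5, and the share of all genes called in either direction from 0.062% to 14%. The members' median log2 difference was 0.55, with 0.00024 for all genes, and in 2 genes (Amacr and Baat) the groups did not overlap, where 11.9% of all genes lay apart on the higher side. Against the control group 6 members were still lower, 1 was higher and 3 were not called, with 13.1% of all genes called lower and 13.6% called higher (26.7% in either direction). In 6 of the 10 genes these groups did not overlap, where 17.3% of all genes lay apart on the lower side and 20.6% on the higher side.

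**Figure D2:**
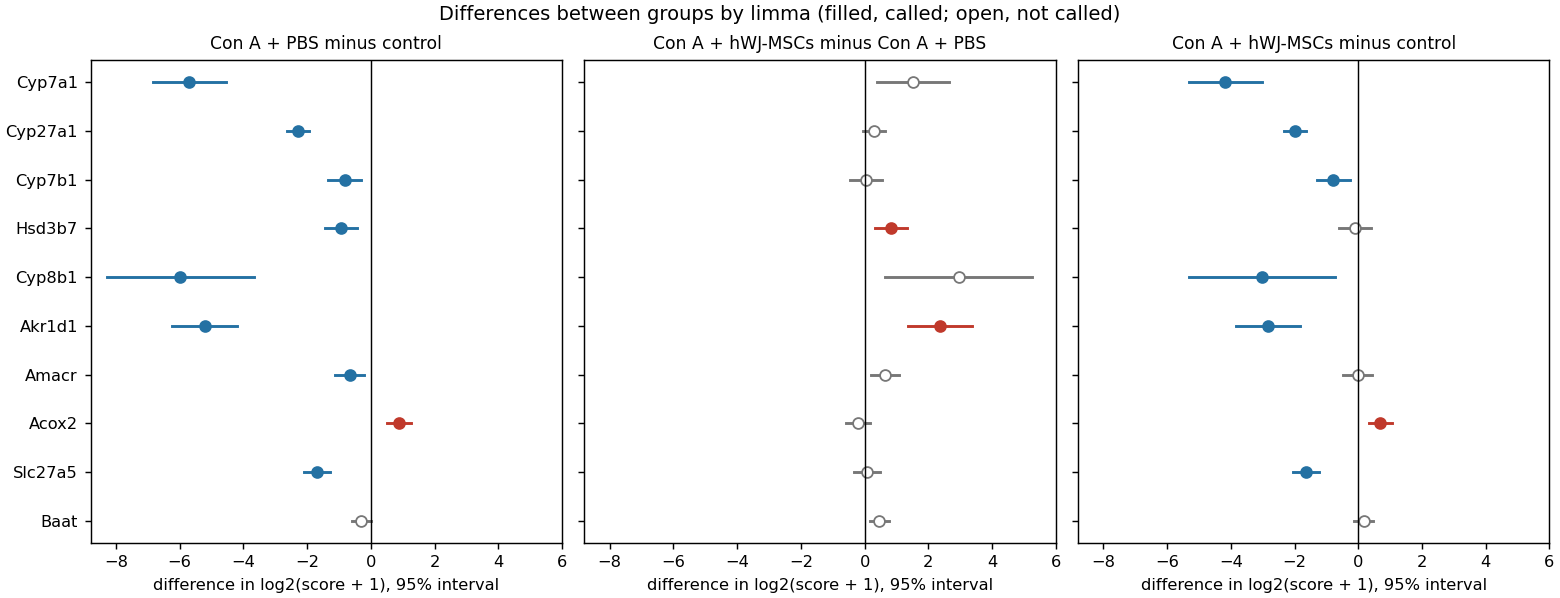
Difference in log2(score + 1) between groups for each gene, with 95% intervals from limma over 12 mice, filled where called and open where not. Cyp7a1, Cyp8b1 and Akr1d1 lie furthest below 0 for Con A + PBS minus control, at -5.69, -5.98 and -5.22, and Akr1d1 and Hsd3b7 are the filled points above 0 for Con A + hWJ-MSCs minus Con A + PBS.

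Cyp7a1, the rate-limiting enzyme of the classical route, had scores of 7356, 1768, 3406 and 2503 in the 4 control mice. After Con A and PBS the scores were 35, 119, 54 and 64. With hWJ-MSCs they were 175, 479, 116 and 104. The control mice were far above all 8 mice given Con A, and 1 Con A + PBS mouse at 119 overlapped the hWJ-MSCs range. The mean fell from 3758 ± 2490 (SD, n = 4) to 68.0 ± 36.1 (SD, n = 4), a log2 difference of -5.69 ± 0.53 (SE) and 51.8-fold lower (limma, adjusted p = 4.11e-06). With hWJ-MSCs the mean was 218.5 ± 176 (SD, n = 4), a log2 difference of 1.52 ± 0.53 (SE) from the Con A + PBS group that was not called (95% interval 0.38 to 2.66, limma adjusted p = 0.0683). With 1 mouse left out that difference ranged from 1.04 without hWJ-MSCs mouse 2 to 1.83 without Con A + PBS mouse 2, and limma called it in the latter fit (adjusted p = 0.0372) and without control mouse 1 (1.52, 0.0497). Relative to control, Cyp7a1 in the hWJ-MSCs group remained lower by a log2 difference of -4.18 (limma adjusted p = 8.13e-05). The gene lies at chr4:6265612-6275631 on the minus strand (mm10).

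Cyp27a1, the mitochondrial sterol hydroxylase that opens the alternative route, had control scores of 9812, 8198, 7100 and 9344. The Con A + PBS mice held 1540, 1820, 1618 and 1994, and the hWJ-MSCs mice 2457, 2513, 2112 and 1591. Both Con A groups lay below every control mouse and overlapped each other. The log2 difference from control was -2.30 ± 0.16 (SE), or 4.93-fold lower, after Con A and PBS (limma adjusted p = 5.62e-07), and -2.0 with hWJ-MSCs (limma adjusted p = 2.55e-06). Between the Con A groups the difference was 0.30 with a 95% interval from -0.05 to 0.65 (limma adjusted p = 0.202). The transcript is at chr1:74713574-74737892 on the plus strand.

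Cyp7b1 encodes the oxysterol hydroxylase that follows Cyp27a1 in the alternative route. Its control scores were 580, 532, 763 and 504, its Con A + PBS scores 350, 379, 287 and 315, and its hWJ-MSCs scores 330, 531, 383 and 202. The Con A + PBS mice lay below the control mice without overlap, and hWJ-MSCs mouse 2 at 531 was within the control range. Cyp7b1 fell by 0.82 on the log2 scale after Con A and PBS (SE 0.24, limma adjusted p = 0.0108), a much smaller change than in Cyp7a1. The difference between the Con A groups was 0.04, with an interval from -0.47 to 0.56 that leaves its direction undetermined. Against control, the hWJ-MSCs group was lower by -0.78 on the log2 scale (limma adjusted p = 0.0202), and this call was lost without hWJ-MSCs mouse 4, at -0.53, or without control mouse 3, at -0.65.

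The sterol hydroxylase of the classical route was set beside the oxysterol hydroxylase of the alternative route as the ratio of the Cyp7a1 score to the Cyp7b1 score in the same liver. The ratio was chosen after the values were seen and is given without a test. It ran from 3.32 to 12.7 in control mice, from 0.1 to 0.314 in Con A + PBS mice and from 0.303 to 0.902 in hWJ-MSCs mice. Control mice were separate from both Con A groups, and the ranges of the latter overlapped narrowly.

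**Figure D3:**
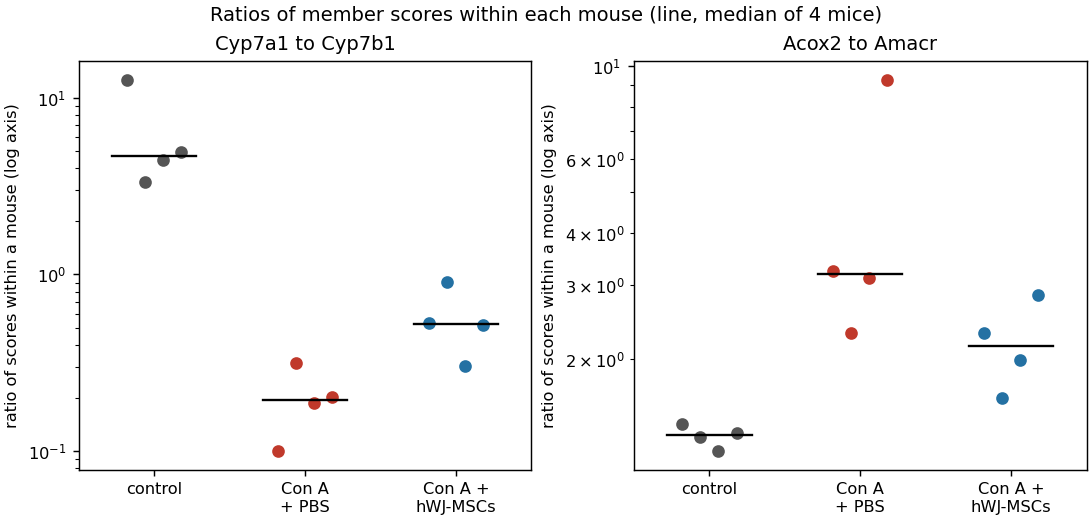
Ratio of scores within each mouse (log axis), Cyp7a1 to Cyp7b1 on the left and Acox2 to Amacr on the right, with 1 point per mouse and a line at the median of 4. Median Cyp7a1 to Cyp7b1 ratios are 4.72, 0.196 and 0.523, and median Acox2 to Amacr ratios are 1.32, 3.18 and 2.14 (control first, then PBS, then hWJ-MSCs).

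The ring steps are carried out by Cyp8b1, Akr1d1 and Hsd3b7. The promoters of Cyp8b1 and Akr1d1, which moved together, are shown with that of Acox2, the gene that moved the other way. They come from RefSeq (GRCm38.p6), in which 5 of the 10 genes (Cyp27a1, Hsd3b7, Cyp8b1, Akr1d1 and Acox2) matched, and each runs from 250 bases before to 50 bases after the start site, 5′ to 3′ along the gene. Cyp8b1 is chr9:121916256-121916555 (minus strand), Akr1d1 is chr6:37529923-37530222 (plus strand) and Acox2 is chr14:8258790-8259089 (minus strand), the window of its 2 RefSeq start sites that lies nearer the start of the listed transcript. Capitals mark motif matches.
Cyp8b1: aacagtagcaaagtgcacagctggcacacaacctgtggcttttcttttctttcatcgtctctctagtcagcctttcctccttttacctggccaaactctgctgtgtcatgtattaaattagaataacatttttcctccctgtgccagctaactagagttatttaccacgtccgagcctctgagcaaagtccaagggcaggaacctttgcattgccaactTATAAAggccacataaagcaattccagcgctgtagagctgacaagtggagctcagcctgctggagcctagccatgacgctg
Akr1d1: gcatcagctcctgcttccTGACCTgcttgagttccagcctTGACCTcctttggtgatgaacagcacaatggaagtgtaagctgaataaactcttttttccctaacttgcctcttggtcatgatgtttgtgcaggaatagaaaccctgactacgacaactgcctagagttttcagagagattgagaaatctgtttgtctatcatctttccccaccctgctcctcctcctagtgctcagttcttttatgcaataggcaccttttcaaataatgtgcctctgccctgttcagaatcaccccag
Acox2: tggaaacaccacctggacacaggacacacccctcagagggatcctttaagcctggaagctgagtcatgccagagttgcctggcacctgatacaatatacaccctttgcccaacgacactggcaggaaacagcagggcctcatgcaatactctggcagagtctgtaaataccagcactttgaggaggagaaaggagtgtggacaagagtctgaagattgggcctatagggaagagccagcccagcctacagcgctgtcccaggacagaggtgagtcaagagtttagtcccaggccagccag

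In the Cyp8b1 window the capitals are TATAAA, a core promoter motif searched on the written strand, starting 31 bases before the start site. It occurs in 8.32% of the 32851 RefSeq promoters of the same length. In Akr1d1 they are AGGTCA, a core motif bound by nuclear receptors, read on the opposite strand at 232 and 210 bases before the start. That motif, on either strand, is in 16.3% of all promoters. Other searches on both strands were for the LRH-1 motif CAAGGTCA, which contains the core motif above and matched 1.56% of all promoters, and for the STAT motif TTCNNNGAA, which matched 8.30%. Part of the HNF1 site, searched as GTTAAT, matched 7.10%. None of them matched in these 3 windows, which says only that these letters are not there. Of the promoters not printed, that of Hsd3b7 held the STAT motif 21 bases before the start, and those of Cyp27a1 and the other Acox2 start site held none of the motifs searched. This Hsd3b7 start site, at base 127800609, is not that of the listed transcript, which starts at 127785608. CpG dinucleotides numbered 5 in Cyp8b1, 1 in Akr1d1 and 2 in Acox2, and 10 in Cyp27a1, 3 in Hsd3b7 and 4 in the other Acox2 window, beside a median of 7 over all promoters.

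Cyp8b1, the sterol hydroxylase that directs synthesis to cholic acid, had control scores of 4732, 2572, 3079 and 3079. After Con A and PBS the 4 mice held 32, 301, 90 and 7. With hWJ-MSCs they held 605, 2020, 340 and 62. The highest and lowest mice differed 1.84-fold in the control group, 43-fold in the Con A + PBS group and 32.6-fold in the hWJ-MSCs group, so this gene carried the widest spread of the 10 after Con A. The log2 difference from control was -5.98 ± 1.06 (SE) after Con A and PBS (63.2-fold lower, limma adjusted p = 0.000492). That estimate is -5.58 when 10 is added to the score in place of 1, and with 1 mouse left out it ranged from -6.83 without Con A + PBS mouse 2 to -5.08 without Con A + PBS mouse 4. Between the Con A groups the difference of 2.96 (95% interval 0.66 to 5.26) was not called by limma (adjusted p = 0.0747). With 1 mouse left out it ranged from 2.06 without Con A + PBS mouse 4, not called, to 3.85 without hWJ-MSCs mouse 4, and it was called in that fit (adjusted p = 0.0291) and without Con A + PBS mouse 2 (3.80, adjusted p = 0.0257). Against control the hWJ-MSCs group was lower by -3.03 (limma adjusted p = 0.0372), a call that was lost in 7 of 12 fits with 1 mouse left out. Those were each control mouse and hWJ-MSCs mice 1, 3 and 4, with adjusted p-values of 0.0564 to 0.107, and over all 12 fits the difference ran from -3.80 to -2.13. The gene is at chr9:121914356-121916305 on the minus strand.

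Akr1d1 encodes the reductase that saturates the sterol ring and gives bile acids their bent shape. It had scores of 5138, 4285, 3862 and 4108 in control mice, 80, 226, 100 and 96 after Con A and PBS, and 552, 1566, 664 and 226 with hWJ-MSCs. All 8 mice given Con A were below control, and the Con A groups met at a single value, 226, held by Con A + PBS mouse 2 and hWJ-MSCs mouse 4. Akr1d1 fell 37.3-fold after Con A and PBS, a log2 difference of -5.22 ± 0.47 (SE, limma adjusted p = 3.16e-06). With hWJ-MSCs it was 5.19-fold higher than after Con A and PBS, a log2 difference of 2.38 ± 0.47 (SE, 95% interval 1.37 to 3.39, limma adjusted p = 0.0203). The call was lost without hWJ-MSCs mouse 2, hWJ-MSCs mouse 3 or Con A + PBS mouse 1, where the difference was 1.92 to 2.33 and the adjusted p 0.0574 to 0.0697. The hWJ-MSCs group still lay below control by a log2 difference of -2.85 (limma adjusted p = 0.000521). The gene spans chr6:37530173-37568815 on the plus strand.

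Hsd3b7, the dehydrogenase acting on the ring early in both routes, had control scores of 5047, 5144, 6546 and 6046. Con A + PBS mice held 2474, 4840, 3130 and 2042, and hWJ-MSCs mice 4938, 6764, 4840 and 4748. Con A + PBS mouse 2 alone reached the hWJ-MSCs range, and the hWJ-MSCs mice overlapped the control mice. The log2 difference was -0.94 ± 0.23 (SE) after Con A and PBS (limma adjusted p = 0.00395) and 0.83 ± 0.23 (SE) with hWJ-MSCs against Con A + PBS (limma adjusted p = 0.0377). The latter call was lost in 6 of 12 fits without 1 mouse, namely each of hWJ-MSCs mice 1, 2 and 3 and Con A + PBS mice 1, 3 and 4, where the difference was 0.65 to 0.87. Compared with control, the hWJ-MSCs group differed by -0.11 with an interval from -0.60 to 0.39. The listed transcript, chr7:127785608-127803802 on the plus strand, is assigned in GENCODE M21 to Gm49388. Exons of Hsd3b7 overlap exons of Gm49388 and of 9430064I24Rik, so the place of a read in the overlap does not identify its gene. How such reads were divided was not tested.

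**Figure D4:**
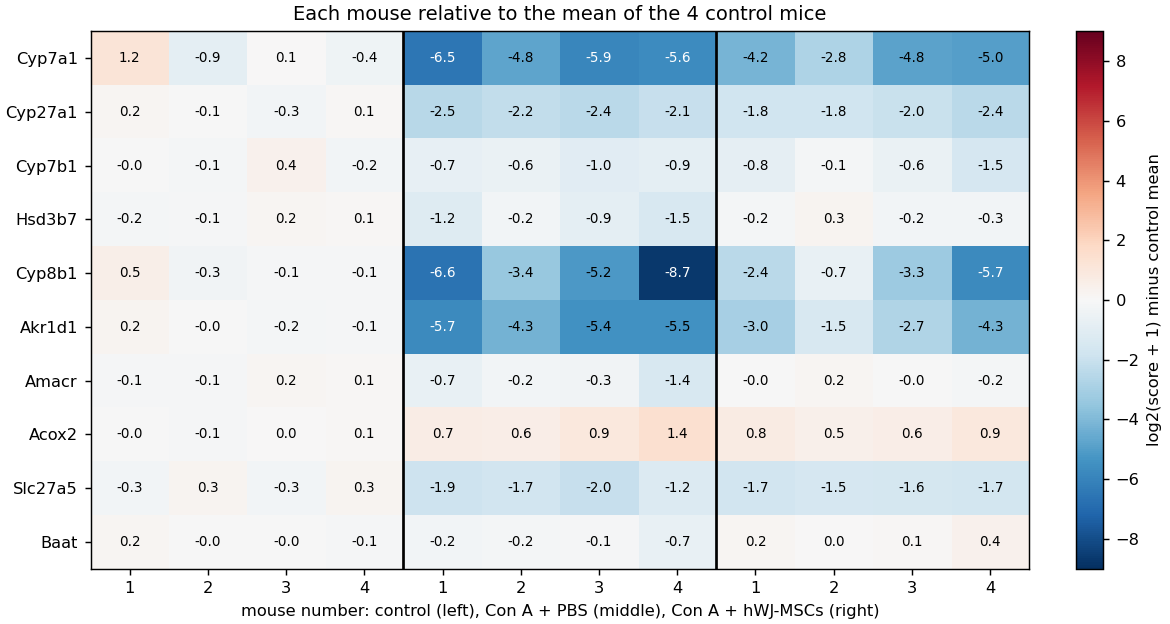
Difference of log2(score + 1) from the mean of the 4 control mice for each gene (rows) in each mouse (columns, 4 per group, control on the left, Con A + PBS in the middle and Con A + hWJ-MSCs on the right), blue below and red above control. The rows of Cyp7a1, Cyp8b1 and Akr1d1 hold the darkest blue in both Con A groups and are palest in mouse 2 of each, and the Acox2 row is red in all 8 of these mice.

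The side chain enzymes moved in opposite directions. Amacr, the racemase that readies the side chain for peroxisomal oxidation, had control scores of 1886, 1866, 2256 and 2138. After Con A and PBS it had 1284, 1716, 1606 and 764, below every control mouse, and with hWJ-MSCs 1972, 2280, 2020 and 1762, above every Con A + PBS mouse. The fall after Con A was -0.66 ± 0.21 (SE) on the log2 scale (limma adjusted p = 0.0170), but without Con A + PBS mouse 4 it was -0.41 and no longer called. The difference of 0.64 with hWJ-MSCs against Con A + PBS was not called (95% interval 0.19 to 1.09, limma adjusted p = 0.0584), and with 1 mouse left out it ranged from 0.39 without Con A + PBS mouse 4 to 0.78 without Con A + PBS mouse 2, the fit in which it was called (adjusted p = 0.0279). Against control the hWJ-MSCs group differed by -0.02, with an interval from -0.47 to 0.43. The gene lies at chr15:10981756-10996624 on the plus strand.

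Acox2, the peroxisomal oxidase that follows Amacr in shortening the side chain, was the member that rose. Its scores were 2630, 2429, 2714 and 2846 in control mice, 4166, 3957, 5012 and 7100 after Con A and PBS, and 4530, 3681, 4019 and 5012 with hWJ-MSCs. All 8 mice given Con A were above the control mice. The log2 difference from control was 0.89 ± 0.17 (SE, 1.86-fold, limma adjusted p = 0.000858) after Con A and PBS and 0.69 ± 0.17 (SE, limma adjusted p = 0.00675) with hWJ-MSCs. The Con A groups differed by -0.20, with an interval from -0.57 to 0.17, and by -0.025 without Con A + PBS mouse 4. Among mice, Acox2 was lowest in mouse 2 and highest in mouse 4 of both Con A groups, the reverse of Cyp8b1, which was highest in mouse 2 and lowest in mouse 4 of both. The ratio of Acox2 to Amacr, also chosen after the values were seen and not tested, was at most 1.39 in control mice, 2.31 to 9.29 after Con A and PBS and 1.61 to 2.84 with hWJ-MSCs. The gene is at chr14:8225511-8258832 on the minus strand.

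The conjugation enzymes differed as well. Slc27a5 encodes the bile acid-CoA ligase that activates bile acids before conjugation. It had scores of 16250, 23483, 16250 and 23483 in control mice, 5357, 6017, 4720 and 8492 after Con A and PBS, and 5879, 6715, 6494 and 6134 with hWJ-MSCs. The repeated control values show the coarse steps of the scale at this height. Slc27a5 fell by 1.70 on the log2 scale (SE 0.19, limma adjusted p = 1.59e-05) after Con A and PBS and by 1.63 with hWJ-MSCs (limma adjusted p = 4.42e-05). The difference between the Con A groups was 0.07 (95% interval -0.34 to 0.48). The transcript listed for Slc27a5, chr7:12988346-12989114 on the minus strand, is 769 bases long and covers part of the gene.

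Baat, the transferase that joins the activated bile acid to taurine or glycine, was not called against control. Its scores were 5250, 4562, 4658 and 4380 in control mice and 4040, 4108, 4462 and 2904 after Con A and PBS, with 1 Con A + PBS mouse above the lowest control mouse. The log2 difference was -0.30 ± 0.14 (SE), with an interval from -0.60 to 0.01 (limma adjusted p = 0.0892), and it was -0.16 without Con A + PBS mouse 4. With hWJ-MSCs the scores were 5393, 4743, 5040 and 6040, above every Con A + PBS mouse. That difference was 0.46 (95% interval 0.16 to 0.77, limma adjusted p = 0.0480), which is 1.38-fold and below the fold required for a call. Against control, the hWJ-MSCs group differed by 0.17 with an interval from -0.14 to 0.47. Baat is at chr4:49489422-49506557 on the minus strand.

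Ordered by the size of the log2 difference after Con A and PBS, the members ran Cyp8b1, Cyp7a1, Akr1d1, Cyp27a1, Slc27a5, Hsd3b7, Cyp7b1, Amacr and Baat among those below 0, with Acox2 above 0. The 95% intervals of Cyp8b1 (-8.28 to -3.68), Cyp7a1 (-6.84 to -4.55) and Akr1d1 overlapped, so their order was not resolved. The same holds for Hsd3b7, Cyp7b1 and Amacr, whose SEs of 0.21 to 0.24 exceed the gap between each and the next. The intervals of Cyp27a1 and Slc27a5, of Slc27a5 and Hsd3b7, and of Amacr and Baat overlapped as well.

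Among 18 other enzymes and cofactors of bile acid metabolism found in the table, 9 fell and 3 rose after Con A and PBS, and 5 rose and none fell with hWJ-MSCs against Con A + PBS (limma, median log2 differences -0.63 and 0.31). Of all genes 19.2% were called lower and 19.5% higher after Con A and PBS, and 4.2% higher with hWJ-MSCs. Over the 12 fits that each dropped 1 mouse, 0 to 6 genes rose with hWJ-MSCs and up to 1 fell, and at an unadjusted p under 0.05 the counts were 10 and 2, beside 18% and 16.6% of all genes. Akr1c6, a hydroxysteroid dehydrogenase, fell by 5.23 on the log2 scale (limma adjusted p = 7.07e-05), from 23652 to 29712 in control mice to 452 to 1698. Hsd17b6 fell by 3.54 (limma adjusted p = 2.96e-05), and with hWJ-MSCs it was 2.32 above Con A + PBS (adjusted p = 0.0188), a call lost without hWJ-MSCs mouse 2 or 3 or Con A + PBS mouse 1 (adjusted p 0.0557 to 0.0696). Cyp2c70, which makes the muricholic acids of mouse bile, fell by 2.38 (limma adjusted p = 2.75e-06). Fdx1, the ferredoxin that passes electrons to Cyp27a1, fell by 1.40 (limma adjusted p = 6.76e-05).

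Members of the same group also rose. Ch25h, a cholesterol hydroxylase known as an interferon-induced gene, was listed at 0 in 3 control mice and at 4 in the other. It had scores of 415, 370, 372 and 408 after Con A and PBS and 185, 61, 124 and 220 with hWJ-MSCs, so all 8 mice given Con A were above control. Since each gene of the table reaches 64 in at least 2 mice and the control mice did not, Ch25h is in the table through the mice given Con A, and a rise was a condition of its presence. Without it, 9 of the other 17 genes fell and 2 rose after Con A and PBS. For Ch25h the difference between the Con A groups was -1.55 and not called (limma adjusted p = 0.0617). Acnat2, an acyl-CoA amino acid transferase related to Baat, rose by 1.32 (limma adjusted p = 2.11e-05), from 1670 to 2789 in control mice to 4562 to 5567. Acot8, a peroxisomal thioesterase, rose by 0.63 (limma adjusted p = 0.000366), or 0.58 without Con A + PBS mouse 1, where it missed the fold threshold.

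Of 14 bile acid transporters, 10 fell and none rose after Con A and PBS by limma (11 and 0 at an unadjusted p under 0.05, where 28.2% and 32.5% of all genes were), beside 19.2% of all genes called lower. With hWJ-MSCs against Con A + PBS 1 rose, or 0 to 3 with 1 mouse left out, beside 4.2% of all genes. Abcb11, the bile salt export pump, had control scores of 17671, 20910, 18944 and 23644. The Con A + PBS mice held 1420, 3493, 2084 and 600, and the hWJ-MSCs mice 3700, 8542, 3808 and 2474. Its log2 differences were -3.67 (limma adjusted p = 4.10e-05) and, between the Con A groups, 1.40 (adjusted p = 0.0606, not called). In both Con A groups Abcb11, like Cyp8b1, was highest in mouse 2 and lowest in mouse 4. Slc10a1, the sodium-dependent uptake carrier of bile acids, fell by 2.98 (limma adjusted p = 2.10e-04) and was 1.53 higher with hWJ-MSCs (adjusted p = 0.0495), a call lost in 10 of 12 fits without 1 mouse, the exceptions being those without Con A + PBS mouse 2 or hWJ-MSCs mouse 4. Slco1a4, an organic anion carrier, fell by 3.64 (limma adjusted p = 1.97e-06). The canalicular phospholipid transporter Abcb4 was not called, at -0.33 (limma adjusted p = 0.159).

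**Figure D5:**
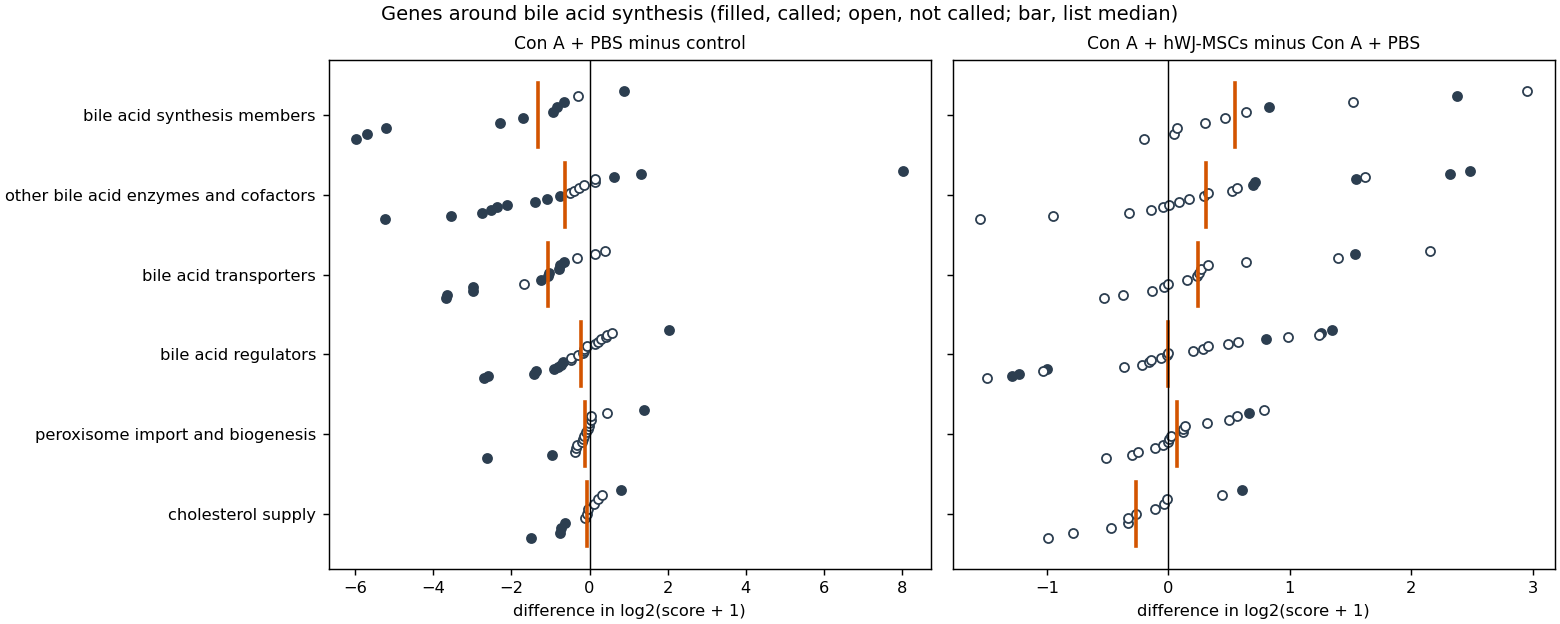
Log2 differences of the 10 bile acid synthesis genes and of 5 related gene lists, 1 point per gene, filled where called by limma and open where not, with a bar at each list's median, for Con A + PBS minus control (left) and Con A + hWJ-MSCs minus Con A + PBS (right). Median differences on the left are -1.32 for the synthesis genes, -1.05 for transporters and -0.23 for regulators, and Ch25h, at 0 in 3 control mice, is the point near 8.03, which becomes 5.20 when 10 is added to the score in place of 1.

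Of 22 regulators of the pathway, 8 fell and 1 rose after Con A and PBS, a share close to the 38.8% of all genes called in either direction, with a median log2 difference of -0.23. Of the same genes 3 rose and 3 fell with hWJ-MSCs against Con A + PBS, where 4.2% and 4.38% of all genes did. With 1 mouse left out the latter counts ranged from 0 to 5 and from 0 to 4. Klb, the co-receptor through which FGF15 represses Cyp7a1, fell from scores of 299, 645, 414 and 550 to 75, 120, 69 and 38, a log2 difference of -2.70 (limma adjusted p = 3.38e-05). Fgfr4, its partner receptor, fell by 1.37 (limma adjusted p = 0.000222). With hWJ-MSCs Klb had scores of 140, 254, 167 and 134, all above the Con A + PBS mice, a difference of 1.26 (limma adjusted p = 0.0341) whose call was lost in the same 6 fits as that of Hsd3b7, with adjusted p-values of 0.0549 to 0.102.

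Nr0b2, the repressor SHP that acts on Cyp7a1 and Cyp8b1, had scores of 935, 991, 969 and 1029 in control mice and 238, 369, 345 and 22 after Con A and PBS. All 4 were below control (log2 difference -2.59, limma adjusted p = 0.00593), with mouse 4 far below the rest and a difference of -1.65 without it. Nr1h4, which encodes the bile acid receptor FXR, fell by 0.80 (limma adjusted p = 0.0486), a call that held without Con A + PBS mouse 2 or 3 and was lost in the other 10 of 12 fits, with a difference of -0.38 without Con A + PBS mouse 4. Jun, a component of AP-1 that responds to stress kinases, rose by 2.04 (limma adjusted p = 0.000209) and was -1.28 on the log2 scale with hWJ-MSCs against Con A + PBS (adjusted p = 0.0305), a call lost without hWJ-MSCs mouse 2 or 3 or Con A + PBS mouse 1 (adjusted p 0.0803 to 0.0939). Hnf4a and Nr5a2, activators of Cyp7a1 and Cyp8b1, were not called against control, at 0.23 (limma adjusted p = 0.397) and -0.17 (0.504).

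The 16 genes of peroxisome import and biogenesis, whose organelle houses Amacr, Acox2 and Baat, were mostly not called, with 2 lower and 1 higher after Con A and PBS (38.8% of all genes were called) and a median log2 difference of -0.12. Pex11a, which promotes peroxisome division, rose by 1.40 (limma adjusted p = 0.000101), and Pex7, an import receptor, fell by 0.97 (adjusted p = 7.86e-05). Cat, the peroxisomal catalase, fell by 2.63 (limma adjusted p = 3.70e-05), from 58393 in every control mouse to 6578 to 14006. Of 11 genes of cholesterol supply, 4 fell and 1 rose, beside 19.2% of all genes called lower and 19.5% higher, with a median log2 difference of -0.05. Insig1, which restrains cholesterol synthesis, fell by 1.51 (limma adjusted p = 0.00107), and Sqle, an enzyme of that synthesis, rose by 0.81 (adjusted p = 0.0177), which was 0.64 and not called without control mouse 2. Stard5, a carrier of sterols, fell by 0.76 (limma adjusted p = 0.00219).

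Several hepatocyte and zone markers also differed between the groups. Of 11 hepatocyte markers measured, 6 fell and none rose after Con A and PBS by limma (also 6 and 0 at an unadjusted p under 0.05), beside 19.2% and 19.5% of all genes, with a median log2 difference of -0.73, and Alb, at the largest score, and Cps1, at 147960, held the same value in all 12 mice. Their summed score was 1032268 to 1489993 in control mice, 713599 to 775924 after Con A and PBS and 790713 to 819800 with hWJ-MSCs. Alb and Cps1 make up 488988 of each sum, and the highest control sum is that of mouse 1, in which Apoa2 and Ttr held the largest score of the scale. Apoa2 was 34334 in every Con A + PBS mouse and 44484 in every hWJ-MSCs mouse, and Ttr was 34256 to 44292 and 34256 to 72623. Between the Con A groups limma called 1 of the 11 markers (Fah, higher with hWJ-MSCs), beside 4.2% of all genes, with a median log2 difference of 0.13. With 1 mouse left out 0 to 2 rose. All 11 were above 0 in every mouse. The summed score of the 10 bile acid synthesis genes was 50634 to 58681, 19358 to 23778 and 25881 to 31292 in the same order. Among the markers Ass1 fell by 2.44 and Apoa2 by 2.41, beside log2 differences of -2.30 in Cyp27a1, -5.22 in Akr1d1 and -0.66 in Amacr.

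Pericentral hepatocyte markers fell in 9 of 10 genes, beside 19.2% of all genes, with a median log2 difference of -1.92 and summed scores of 181345 to 432626 in control mice and 30538 to 48352 after Con A and PBS. Of these Lgr5 was under 64 in every Con A + PBS mouse, so that a fall was a condition of its presence, and of the other 9 genes 8 fell. Periportal markers fell in 6 of 10 genes and rose in 1, with a median of -1.37 and sums of 67633 to 111484 and 32733 to 47439. With hWJ-MSCs the sums were 44408 to 98129 and 35466 to 51013, but no pericentral marker was called between the Con A groups by limma (3 higher and 1 lower at an unadjusted p under 0.05, median 0.22), and Cyp2e1, at 34530 to 72892 with hWJ-MSCs, holds most of the pericentral sum. Of 10 periportal markers 1 was called (Hsd17b13, 0.74 higher, limma adjusted p = 0.0252), beside 4.2% of all genes called higher. At an unadjusted p under 0.05, 5 were higher and 2 lower, with a median of 0.57. With 1 mouse left out 0 to 4 periportal markers rose and up to 1 fell. The part of these shifts in the changes of the synthesis genes was not tested.

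Markers of other liver cells differed in both directions, beside 19.2% of all genes called lower and 19.5% higher after Con A and PBS. All 7 Kupffer cell markers fell (sums 4479 to 6887 in control mice, 570 to 1160 after Con A and PBS and 454 to 1611 with hWJ-MSCs), and 5 of 7 endothelial markers fell and 1 rose (2515 to 3659, 999 to 1497 and 1383 to 1742). Of the Kupffer and endothelial markers, 2 each were under 64 in every Con A + PBS mouse. Monocyte and neutrophil markers rose in 7 of 8 genes and fell in 1, but Ly6c2, S100a8, S100a9 and Cd14 were under 64 in every control mouse, so that a rise was a condition of their place in the table, and of the other 4 genes 3 rose. The sums were 987 to 1375, 6267 to 7756 and 2799 to 4998 in the same order. The lower sum with hWJ-MSCs came from Cd14 (4032 to 5380 after Con A and PBS, 1009 to 2784 with hWJ-MSCs), the 1 marker of the 8 called between the Con A groups, and their median log2 difference was 0.0093. The Cd14 call was lost without hWJ-MSCs mouse 3 or Con A + PBS mouse 1 (limma adjusted p 0.0557 to 0.0696). Stellate and stromal markers fell in 4 of 8 genes, with overlapping sums of 5233 to 8216, 6103 to 7121 and 4520 to 9596. Of these Colec11 was under 64 in every Con A + PBS mouse, so that a fall was a condition of its presence, and of the other 7 genes 3 fell. Of 4 cholangiocyte markers 1 rose (2336 to 4493, 2396 to 13277 and 2249 to 6488). The T cell markers in the table, Cd8a and Lck, had sums of 15 to 37, 114 to 236 and 136 to 162, and both are in it through the mice given Con A in the same way. The other T cell markers listed, Cd3e, Cd3d, Cd3g, Cd4, Trac and Cd2, were looked for by name and are absent from the table. Cd8a was listed at 0 in a control mouse and Cftr, a cholangiocyte marker, in an hWJ-MSCs mouse. The part of these cell markers in the results was not tested.

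By Pearson correlation of log2(score + 1) over the 12 mice, Mpv17l (r = 0.994), Gstt1 (0.987) and Tecr (0.986) had the patterns most like that of Cyp7a1. For Cyp8b1 they were Slc10a1 (0.988), Bphl (0.986) and Car5a (0.984), and for Cyp7b1 Acp5 (0.942), Car2 (0.936) and Rnaset2a (0.927). The 12 points share the 3 treatment groups, whose means differ, and the common scale of scores, so these values describe likeness of pattern only.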

How the data were processed

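Liver RNA of 12 mice (poly(A) enriched, NEBNext Ultra, paired reads on a NovaSeq) was aligned and counted by the authors. The submitters' processing notes name Bowtie2 2.2.1, RSEM 1.2.18 and mm10, with no normalization step given in the sources used here, and strandedness is not stated. The deposited table, described by its authors as counts, holds whole-number scores that share 1 distribution: 82.1% of ranks have the same value in all 12 mice. It was therefore treated as normalized scores, not counts. The planned count tests were not run, and read depth and counting error are unknown. The table appears to have been filtered, since no gene of the 11289 stays under 64 in more than 10 mice, and 16 rows share their gene name with another row.

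Log2(score + 1) was fitted over all genes and 12 mice with limma 3.58.1 (R 4.3.3) with an intensity trend, and p-values were adjusted by Benjamini-Hochberg over 11289 genes for each comparison. Calls needed an adjusted p below 0.05 and a change above 1.5-fold. Fold changes are on the log2(score + 1) scale and understate those of low scores. The scripts were tested on simulated data. Groups came from the labels. Named genes are the 10 members and, in each related list, up to 2 called genes that rose most and 2 that fell most after Con A and PBS, with marker lists given as counts and sums. Cyp2c70, Fdx1, Acot8, Slc10a1, Abcb4, Fgfr4, Nr1h4, Hnf4a and Nr5a2 were added after their values were seen. Members and lists were chosen with earlier results of these data known. Alternatives were a pseudocount of 10, a minimum mean score of 100, median centring, no trend, a fit of only the mice compared, a replicate block and leaving out each mouse. Figures were drawn with matplotlib 3.10.9.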

Additional observations from a re-analysis of the deposited data

Results flagged for a closer look

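Hsd3b7 in the Con A + hWJ-MSCs group had 1 mouse far from the others. Mouse 2 had a score of 6764, while the other 3 mice lay between 4748 and 4938, and the gap was 0.889 of the group's range on the log2 scale, above Dixon's 95% critical value for 4 samples. Among the 30 groups of member values tested, 1 passed, and chance alone passes about 1 in 20. Without this mouse the log2 difference from the Con A + PBS group was 0.71 and was not called (limma adjusted p = 0.110).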

How the results depend on the processing

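After Con A and PBS, 9 of 10 members were called under each of the 6 alternatives that kept all mice compared (pseudocount of 10, mean of at least 100, median centring, no trend, only the 8 mice compared, replicate block), and 8 to 9 with 1 mouse left out. With hWJ-MSCs against Con A + PBS the 2 calls became 1 with only the 8 mice compared, where Hsd3b7 had a limma adjusted p of 0.0651, and 4 with the replicate block, which added Cyp8b1 (0.0299) and Amacr (0.0426). With 1 mouse left out this count ranged from 0 to 5, at 0 without hWJ-MSCs mouse 2 or 3 or Con A + PBS mouse 1, 1 without hWJ-MSCs mouse 1 or Con A + PBS mouse 3 or 4, 3 without hWJ-MSCs mouse 4 or control mouse 1, and 5 without Con A + PBS mouse 2. The causes were not tested. Against control the hWJ-MSCs count of 7 ranged from 5 to 7. Leaving out 1 mouse turned the sign of 3 differences that were not called: Cyp7b1 (-0.17 to 0.30) and Slc27a5 (-0.044 to 0.24) between the Con A groups, and Amacr between hWJ-MSCs and control (-0.084 to 0.040). Across all genes the replicate block called 1297 with hWJ-MSCs against Con A + PBS in place of 969, and leaving out 1 mouse called 7 (without hWJ-MSCs mouse 3 or Con A + PBS mouse 1) to 1575 (without Con A + PBS mouse 2), with 18 without hWJ-MSCs mouse 2, so the fits with no member called were those with fewest calls among all genes. No source ties mice of the same number to each other, and their deviations from the group means gave mixed correlations. Between the Con A groups r was 0.375 for the mice numbered 2 and 0.244 for those numbered 4, each best with its own number, and -0.043 and -0.087 for numbers 1 and 3. In the comparisons with control r ran from -0.12 to 0.168. The numbers were therefore not taken as pairs. DESeq2 and edgeR were not run, because the table holds no raw counts. Depth is unknown, so the precision of low scores, such as 7 for Cyp8b1, cannot be given.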
